A study of Mus musculus with 12 samples.

Results

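The genes described here encode the receptors through which a dendritic cell (DC) takes up growth factor signals: Flt3, Kit, Csf1r, Csf2ra, Csf2rb, Csf2rb2 and Csf3r. They were chosen by name, as the receptors for FLT3 ligand, stem cell factor, M-CSF, GM-CSF and G-CSF, and they are 7 of the 55401 genes in the table. Of the 7, 5 passed the expression filter together with 14079 genes in all, and Kit and Csf3r did not.

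FLT3, KIT and the M-CSF receptor CSF1R are receptor tyrosine kinases, which pair when they bind ligand and phosphorylate each other. The GM-CSF receptor instead joins a ligand-specific alpha chain, CSF2RA, to a beta chain without enzyme activity, CSF2RB, which brings in the kinase JAK2 and through it the transcription factor STAT5. FLT3 ligand drives the formation of conventional and plasmacytoid DCs, GM-CSF supports monocyte-derived and migratory DCs, and M-CSF supports monocytes and macrophages.

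The cells were Sp37A3, an immature DC line from the spleen of a C57BL/6 mouse. CtrV cells carried the empty lentiviral vector, and EKO cells had been transduced with a Cas9 vector that targets Siglece, the gene of the inhibitory receptor Siglec-E, sorted as single cells, grown as clones and pooled. In the OVA groups cells were pulsed with ovalbumin at 0.1 mg/ml for 2 h and then stimulated with lipopolysaccharide (LPS) at 0.1 ug/ml for 24 h. The unpulsed groups also received LPS for 24 h, so that no group was without LPS, and both lines were kept in medium with 20 ng/ml of GM-CSF and 20 ng/ml of M-CSF, the ligands of 2 of the receptors examined.

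Messenger RNA of each of the 4 groups was sequenced in 3 libraries, 12 in all, with 27116201 to 39698572 counts on genes. The labels do not say whether replicates were separate cultures, so p-values measure the spread between these libraries. Siglece mRNA was not lower in the cells labelled EKO, with 166 to 235 counts per 1000000 of the scaled library (CPM) against 150 to 163 CPM in CtrV libraries, and counts of transcripts cannot show whether the reading frame is broken. The paper screened the clones for Siglec-E and reported little or none on those pooled, a measure made on protein rather than mRNA. The 2 EKO-labelled libraries of replicate 1 stood apart. In the unpulsed EKO group, count differences per degree of freedom (chi-square) were 38.3 and 45.3 for pairs with replicate 1 and 7.50 for replicates 2 and 3. In the OVA-pulsed EKO group they were 42.2 and 26.2 against 11.9, while pairs of CtrV libraries gave 4.85 to 25.4. The receptor results and the counts of the gene lists are therefore also given without these 2 libraries. All 8 DC markers examined, among them Itgax, Cd74 and Zbtb46, were expressed, and Cd3e, Ly6g, S100a8, S100a9 and the mast cell genes Cpa3, Ms4a2 and Fcer1a had no count in any library.

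Csf2rb and Csf2rb2 needed a look at their sequences first, because reads that fit both genes could be counted for either. Csf2rb encodes the beta chain shared by the GM-CSF, IL-3 and IL-5 receptors, and Csf2rb2 encodes a second beta chain, found in mice, that serves IL-3 alone. They lie side by side on chromosome 15 of GRCm38 in opposite orientations, Csf2rb at chr15:78325752-78353847 on the plus strand and Csf2rb2 at chr15:78282507-78305721 on the minus strand. Their coding sequences, of 2691 and 2637 bases, could be aligned over 2631 bases, of which 95.21% were identical, with 126 mismatches and 66 gap columns. Windows of 50 bases without any difference made up 26.27% of the Csf2rb coding sequence. Over whole transcripts, on which reads were counted, such windows made up 12.27% for Csf2rb and 18.44% for Csf2rb2. The stretch with most mismatches, coding bases 300 to 449 of Csf2rb and 303 to 452 of Csf2rb2, is shown because reads over such bases separate the genes. Its 25 mismatches are in capitals.
Csf2rb: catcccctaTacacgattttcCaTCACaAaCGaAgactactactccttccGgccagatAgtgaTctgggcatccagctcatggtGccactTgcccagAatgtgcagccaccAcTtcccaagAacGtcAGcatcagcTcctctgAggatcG
Csf2rb2: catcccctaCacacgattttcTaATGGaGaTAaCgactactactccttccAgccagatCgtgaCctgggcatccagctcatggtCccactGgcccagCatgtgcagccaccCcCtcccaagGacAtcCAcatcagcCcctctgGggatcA
By contrast, coding bases 2083 to 2232 were the same in both genes, and a read inside them has no base by which to assign it. Both are printed once here:
Csf2rb and Csf2rb2: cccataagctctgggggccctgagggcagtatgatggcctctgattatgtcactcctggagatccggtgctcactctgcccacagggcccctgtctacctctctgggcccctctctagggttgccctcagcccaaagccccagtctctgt
The authors' alignment reported a single place for reads that fit several equally well, so the split of counts between these 2 genes is uncertain and their sum is given as well.

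**Figure D1:**
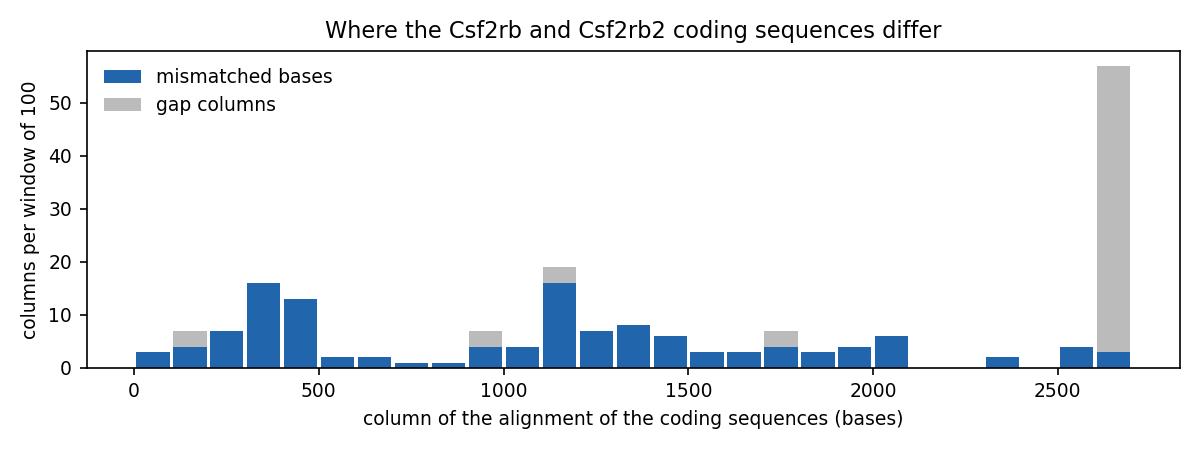
Mismatched bases (blue) and gap columns (grey) in each window of 100 columns of the alignment of the Csf2rb and Csf2rb2 coding sequences (x axis: column in bases, y axis: number of columns; the last window is shorter). Differences gather near columns 301 to 500 and 1101 to 1200, with 16, 13 and 16 mismatches per window, while windows from 2101 to 2300 hold none.

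Per length, the beta chains were the most abundant of the receptor mRNAs and Flt3 was the least abundant of those that passed the filter. As CPM divided by exon length in kilobases (RPKM), Csf2rb lay between 241 and 398 over the 12 libraries and Csf2rb2 between 252 and 378. Csf1r lay between 102 and 164 RPKM, Csf2ra between 15.4 and 21.4 RPKM and Flt3 between 0.161 and 1.27 RPKM. By mean CPM, which is not corrected for length, Csf2rb was 17th, Csf2rb2 37th, Csf1r 115th, Csf2ra 4408th and Flt3 11889th of 14079 genes. In each group the ranges of neighbours in the order beta chains, Csf1r, Csf2ra and Flt3 did not overlap. Between the beta chains themselves, Csf2rb was above Csf2rb2 in unpulsed CtrV cells without overlap, at 374 ± 8.49 against 321 ± 14.9 RPKM (mean ± SD, n = 3), and in the other 3 groups their ranges overlapped. This relation depends on the length used. With the length of the longest transcript the group mean of Csf2rb was above that of Csf2rb2 in every group. The mRNA of the GM-CSF receptor's alpha chain was far below that of its beta chain. The RPKM ratio of Csf2rb to Csf2ra was 18.3 to 22.3 in CtrV libraries and 11.2 to 21.2 in EKO-labelled libraries.

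Kit, the receptor for stem cell factor on progenitors and mast cells, was near zero. Kit had no count in any of the 6 CtrV libraries, 1, 1 and 0 counts in unpulsed EKO-labelled cells and 0, 0 and 1 in OVA-pulsed EKO-labelled cells. Csf3r, which binds G-CSF and marks neutrophils, had no count in any of the 12 libraries. A count of 0 still allows 3 counts, which correspond to 0.0785 to 0.110 CPM here, and covers counting error only. Kit lies on chromosome 5 at 75574916 to 75656722 and Csf3r on chromosome 4 at 126024550 to 126044440, both on the plus strand.

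**Figure D2:**
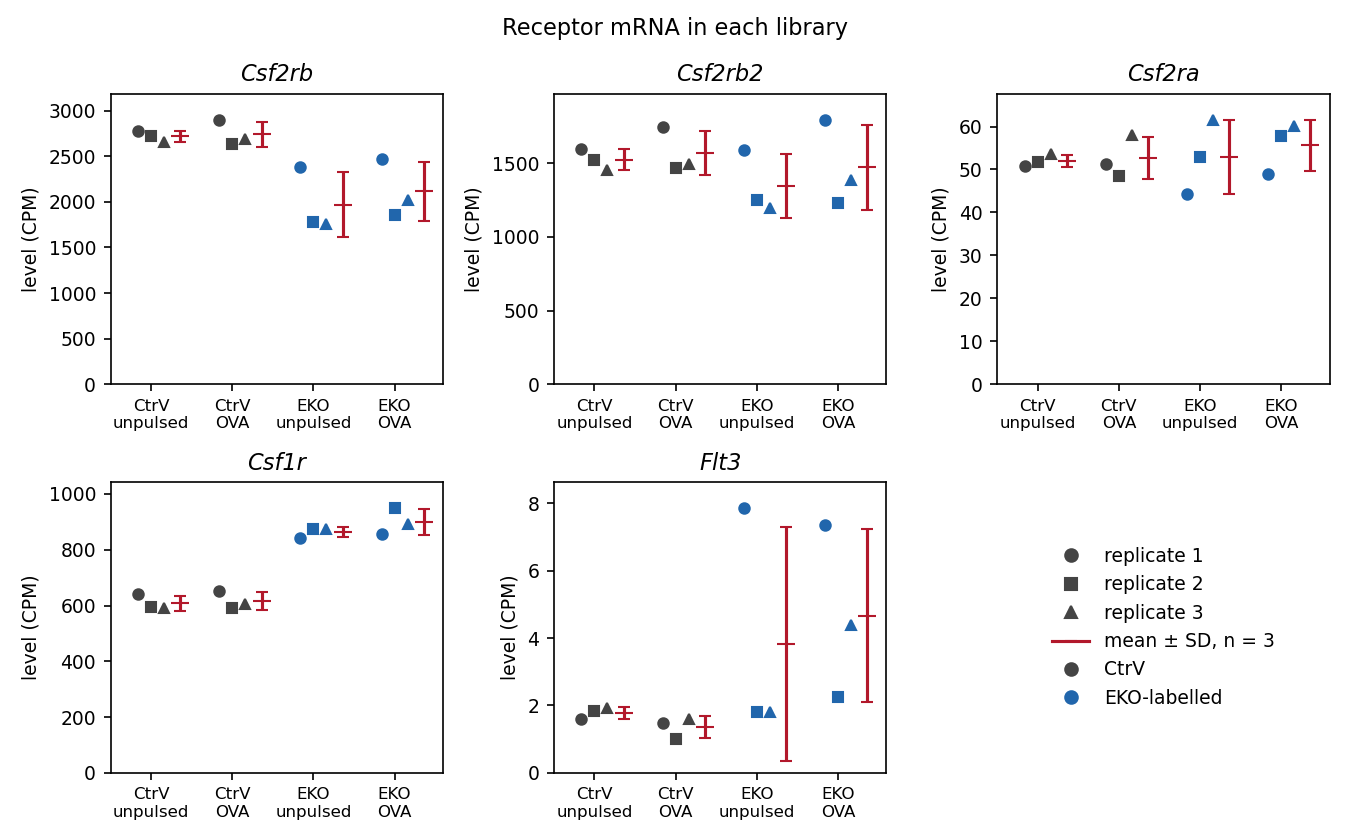
Level in CPM (linear axes from 0) of the 5 receptor genes that passed the filter, by group on the x axis; symbols are replicates, grey is CtrV, blue is EKO-labelled, and red bars are the mean ± SD of 3 libraries. Csf1r separates the lines in all libraries, and replicate 1 of the EKO-labelled cells lies highest of its group for Flt3, Csf2rb and Csf2rb2.

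EKO-labelled cells were then compared with CtrV cells within each pulsing state, the comparison for which the lines were made. Of the 5 receptor genes tested, 2 were higher (Flt3 and Csf1r), 1 was lower (Csf2rb) and 2 did not pass (Csf2ra and Csf2rb2) with OVA. A gene passed when its p from edgeR's quasi-likelihood test, adjusted over all tested genes, was under 0.05. In that comparison 47.0% of all tested genes passed, 25.1% higher and 21.9% lower, so that 3 of 5 receptors is close to the share among all genes. With upper-quartile in place of TMM normalization the shares were 22.0% higher and 26.3% lower. In unpulsed cells 1 was higher (Csf1r), 1 was lower (Csf2rb) and 3 did not pass, against 46.4% of all genes (24.5% higher, 21.9% lower). The median log2 fold change of the 5 genes was 0.08 in OVA-pulsed and 0.01 in unpulsed cells, where the median over all tested genes was 0.00 in both. Without the 2 EKO-labelled libraries of replicate 1, 4 of 5 passed in OVA-pulsed and 3 of 5 in unpulsed cells, because Csf2rb2 then passed as lower in both. In that fit 42.7% and 44.3% of all 13997 tested genes passed.

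Csf1r, which lies on chromosome 18 at 61100598 to 61132149 on the plus strand and encodes the receptor for M-CSF and IL-34, was higher in EKO-labelled cells. In unpulsed CtrV cells it stood at 640, 594 and 592 CPM, and in unpulsed EKO-labelled cells at 841, 873 and 874 CPM. In OVA-pulsed CtrV cells it stood at 652, 591 and 604 CPM, and in OVA-pulsed EKO-labelled cells at 856, 948 and 893 CPM. The lowest EKO-labelled library was above the highest CtrV library, a separation that 35.6% of all tested genes showed between the 6 libraries of each line. Csf1r rose 1.46-fold in OVA-pulsed cells (log2 fold change 0.55, SE 0.06, edgeR adjusted p 3.9e-05) and 1.42-fold in unpulsed cells (log2 fold change 0.50, SE 0.06, edgeR adjusted p 7.3e-05). Without the EKO-labelled libraries of replicate 1 the log2 fold changes were 0.62 and 0.56. Exons of Hmgxb3 on the opposite strand cover 15.1% of the Csf1r exon bases, and whether reads were counted by strand is not given in the sources used here. Hmgxb3 itself was counted at 30.0 to 37.7 CPM and its difference between the lines was small, with a log2 fold change of -0.01 (95% interval -0.14 to 0.11) in OVA-pulsed cells.

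Most macrophage markers were higher where Csf1r was. Of 8 markers 7 were tested, and 5 of 7 were higher in both states, among them C1qa, C1qb, Cd68 and Fcgr1. Over all tested genes 25.1% were higher in OVA-pulsed and 24.5% in unpulsed cells. Adgre1 had log2 fold changes of -0.03 (edgeR adjusted p 0.68) in OVA-pulsed and 0.00 (edgeR adjusted p 0.96) in unpulsed cells, Mertk had -0.32 (edgeR adjusted p 0.31) and -0.35 (edgeR adjusted p 0.30), and Cd163 had at most 1 count. The summed level of the list was 1511 to 1733 CPM in CtrV and 2117 to 2540 CPM in EKO-labelled libraries. In bulk RNA, more cells of a type and more RNA per cell cannot be told apart, and the part of such a shift in the Csf1r result was not tested.

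Flt3, on the minus strand of chromosome 5 at 147330741 to 147400489, encodes the receptor for FLT3 ligand, which DC progenitors and conventional DCs carry. Its level was low in all groups, with 33 to 281 counts per library. In OVA-pulsed cells it stood at 1.49, 0.997 and 1.59 CPM in CtrV and at 7.35, 2.25 and 4.40 CPM in EKO-labelled libraries. All 3 EKO-labelled libraries were above all 3 CtrV libraries, as for 52.9% of tested genes in that comparison. Flt3 rose 3.34-fold (log2 fold change 1.74, SE 0.42, 95% interval 0.82 to 2.66, edgeR adjusted p 0.0057). The ratio within same-numbered pairs was 4.94 for replicate 1, 2.26 for replicate 2 and 2.76 for replicate 3, and without the EKO-labelled libraries of replicate 1 the log2 fold change was 1.27 (edgeR adjusted p 0.0021).

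In unpulsed cells the Flt3 result rested on 1 library. CtrV libraries stood at 1.59, 1.83 and 1.92 CPM and EKO-labelled libraries at 7.85, 1.81 and 1.80 CPM. Replicates 2 and 3 of the EKO-labelled cells lay inside the CtrV range, and only replicate 1 lay above it. The log2 fold change was 0.92 (SE 0.43, 95% interval -0.02 to 1.86) and did not pass, with an edgeR adjusted p of 0.10. It was 0.02 (edgeR adjusted p 0.96) without the EKO-labelled libraries of replicate 1, and 1.31 (edgeR adjusted p 0.025) without the unpulsed EKO-labelled replicate 3. The difference between pulsed and unpulsed cells in this effect was tested directly and did not pass, with a log2 difference of 0.82 (95% interval -0.52 to 2.16, edgeR adjusted p 1).

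Some markers of cells that carry FLT3 differed between the lines, as did 47.0% of all tested genes in OVA-pulsed and 46.4% in unpulsed cells. Of the 8 DC markers 5 were higher and 1 lower in OVA-pulsed cells, and 4 were higher and 1 lower in unpulsed cells. Of all tested genes, 25.1% were higher and 21.9% lower in OVA-pulsed cells, and 24.5% and 21.9% in unpulsed cells. Batf3, Cd83, H2-Aa and H2-Ab1 were higher and Itgax was lower in both states. Ccr7 passed as higher only in OVA-pulsed cells, and Cd74 and Zbtb46 did not pass in either state. Of 8 progenitor markers 5 were tested, of which 2 were higher (Cd34 and Procr) and 2 lower (Meis1 and Myb) in both states, and Mecom had no count. The summed level of the list was 90.1 to 125 CPM in CtrV and 215 to 242 CPM in EKO-labelled libraries. Most of that sum was Cd34, at 47.7 to 192 CPM, and Procr, at 18.1 to 90.9 CPM. The 2 markers that were lower weighed little in it, since Meis1 reached at most 12.9 CPM and Myb 4.62 CPM. Of 4 plasmacytoid DC markers only Bst2 was tested and it was higher in both states, Siglech had at most 11 counts, and Tcf4 and Ly6d had no count in any library. The summed level of these plasmacytoid DC markers was 67.0 to 125 CPM against 154 to 278 CPM. Nearly all of that sum was Bst2, since Siglech reached at most 0.332 CPM. The part of any of these cell types in the Flt3 result was not tested.

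**Figure D3:**
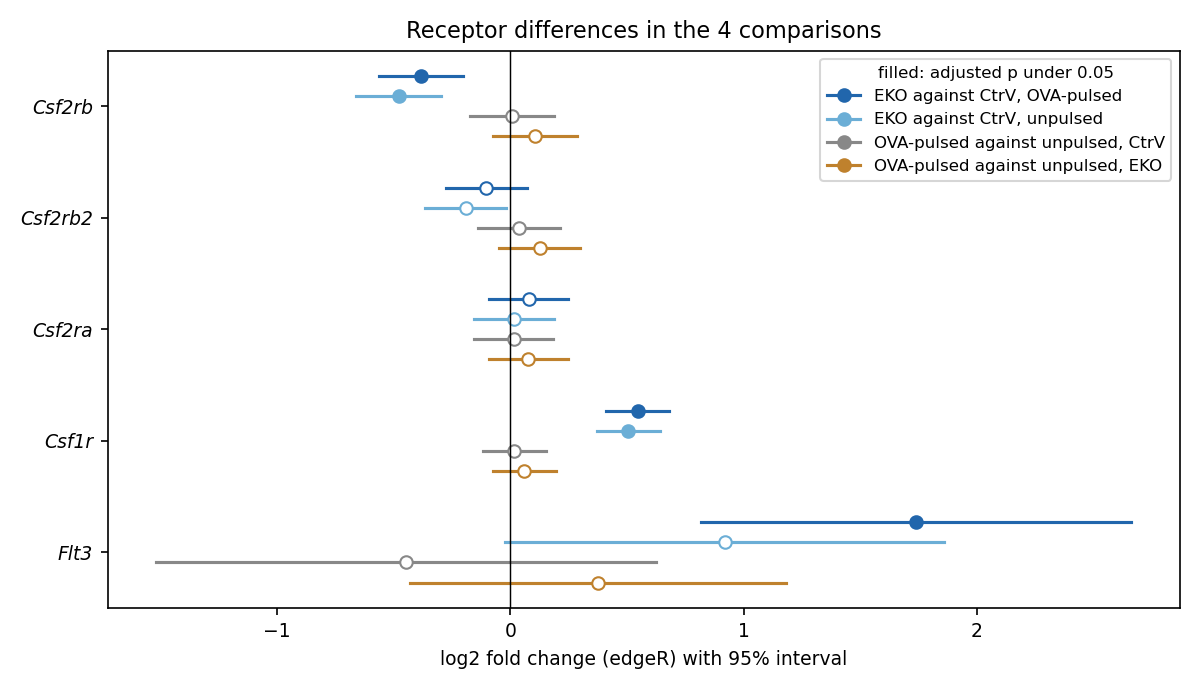
Log2 fold changes (x axis, edgeR) with 95% intervals of the 5 receptor genes in the 2 comparisons of the lines (blue) and the 2 comparisons of OVA pulsing (grey and brown); filled points have an adjusted p under 0.05. Filled points are Csf1r and Csf2rb in both comparisons of the lines and Flt3 in OVA-pulsed cells, and the intervals of Flt3 are the widest.

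Csf2rb, the common beta chain, was lower in EKO-labelled cells. Unpulsed CtrV libraries stood at 2778, 2721 and 2655 CPM and unpulsed EKO-labelled libraries at 2376, 1779 and 1752 CPM. OVA-pulsed CtrV libraries stood at 2898, 2633 and 2683 CPM and OVA-pulsed EKO-labelled libraries at 2471, 1852 and 2019 CPM. The lines did not overlap in either state, which held for 47.1% of tested genes in unpulsed cells, and EKO-labelled replicate 1 lay nearest to the CtrV libraries in both. Csf2rb fell 1.30-fold in OVA-pulsed cells (log2 fold change -0.38, SE 0.08, edgeR adjusted p 0.0029) and 1.39-fold in unpulsed cells (log2 fold change -0.48, SE 0.08, edgeR adjusted p 0.00074). Without the EKO-labelled libraries of replicate 1 the log2 fold changes were -0.47 (edgeR adjusted p 9.1e-05) and -0.59 (edgeR adjusted p 1.7e-05).

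Csf2rb2, the beta chain for IL-3 alone, gave a smaller difference that did not pass. Unpulsed CtrV libraries stood at 1595, 1520 and 1454 CPM and unpulsed EKO-labelled libraries at 1592, 1250 and 1193 CPM. OVA-pulsed CtrV libraries stood at 1743, 1470 and 1495 CPM and OVA-pulsed EKO-labelled libraries at 1793, 1232 and 1388 CPM. Replicates 2 and 3 of the EKO-labelled cells lay below all CtrV libraries of their state, and replicate 1 lay among or above them. The log2 fold change was -0.10 (95% interval -0.28 to 0.07, edgeR adjusted p 0.30) in OVA-pulsed cells and -0.19 (95% interval -0.37 to -0.02, edgeR adjusted p 0.067) in unpulsed cells. Without the EKO-labelled libraries of replicate 1 it passed in both, at -0.20 (edgeR adjusted p 0.038) and -0.26 (edgeR adjusted p 0.011). In unpulsed cells it also passed without CtrV replicate 1, at -0.28 (edgeR adjusted p 0.016), and without the OVA-pulsed EKO-labelled replicate 2, at -0.20 (edgeR adjusted p 0.030).

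The share of each beta chain was then set beside that of the other. Csf2rb2 made up 36.5%, 35.8% and 35.4% of their summed counts in unpulsed CtrV and 37.6%, 35.8% and 35.8% in OVA-pulsed CtrV libraries. In EKO-labelled libraries it made up 40.1%, 41.3% and 40.5% unpulsed and 42.1%, 39.9% and 40.7% pulsed. No EKO-labelled library overlapped with a CtrV library, and here replicate 1 did not stand apart. The mean share was 40.8% against 36.1%, a difference of 4.63 percentage points, which is given as a description without a test because the shares were chosen for comparison after their values had been seen. Counted as 1 gene, the 2 chains fell by 0.27 on the log2 scale in OVA-pulsed cells (edgeR adjusted p 0.016) and by 0.37 in unpulsed cells (edgeR adjusted p 0.0034). The assignment of shared reads was not tested as a part of this shift.

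Csf2ra, the alpha chain that binds GM-CSF, showed no difference that passed. Unpulsed CtrV libraries stood at 50.9, 51.6 and 53.5 CPM and unpulsed EKO-labelled libraries at 44.3, 52.8 and 61.5 CPM. OVA-pulsed CtrV libraries stood at 51.3, 48.6 and 58.0 CPM and OVA-pulsed EKO-labelled libraries at 48.9, 57.8 and 60.2 CPM. The groups overlapped in both states, and EKO-labelled replicate 1 was the lowest of its group, the reverse of its place for Csf2rb. The log2 fold change was 0.08 (95% interval -0.09 to 0.25, edgeR adjusted p 0.43) in OVA-pulsed and 0.01 (95% interval -0.16 to 0.19, edgeR adjusted p 0.90) in unpulsed cells. It was 0.15 (edgeR adjusted p 0.078) and 0.12 (edgeR adjusted p 0.16) without the EKO-labelled libraries of replicate 1.

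**Figure D4:**
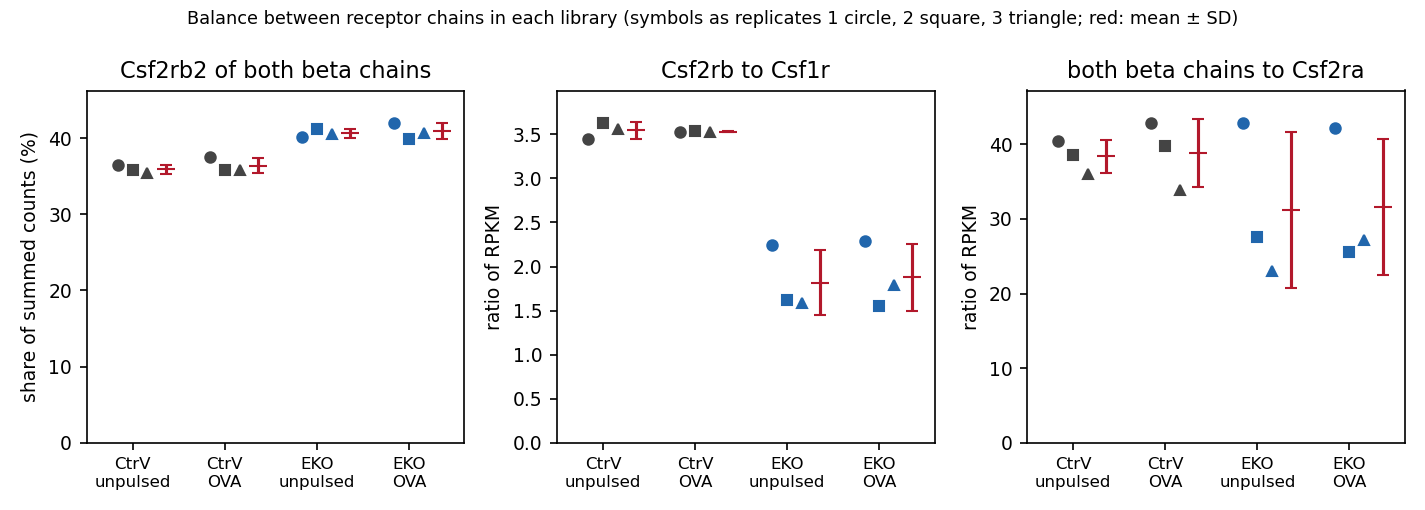
Share of Csf2rb2 in the summed counts of both beta chains (left, percent), RPKM ratio of Csf2rb to Csf1r (middle) and RPKM ratio of the summed beta chains to Csf2ra (right) in each library by group, all axes from 0; red bars are the mean ± SD of 3 libraries. The share of Csf2rb2 is 35.4% to 37.6% in CtrV and 39.9% to 42.1% in EKO-labelled libraries, and the ratio of Csf2rb to Csf1r is 3.45 to 3.63 against 1.55 to 2.29.

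Since Csf1r and Csf2rb differed in opposite directions, the ratio of their mRNAs necessarily differed between the lines as well. It is not a ratio of the GM-CSF and M-CSF receptors. Csf2rb is shared with other receptors, and Csf2ra, the chain that binds GM-CSF, did not pass. The RPKM ratio of Csf2rb to Csf1r was 3.55 ± 0.0945 in unpulsed CtrV and 3.53 ± 0.00520 in OVA-pulsed CtrV cells (mean ± SD, n = 3). It was 1.82 ± 0.368 in unpulsed and 1.88 ± 0.377 in OVA-pulsed EKO-labelled cells. Replicate 1 gave the highest EKO-labelled ratios, 2.24 and 2.29, which were still below the lowest CtrV ratio of 3.45. The RPKM ratio of both beta chains to Csf2ra did not separate the lines, because replicate 1 of the EKO-labelled cells (42.9 and 42.1) lay at the upper end of the CtrV range of 33.9 to 42.9, whereas replicates 2 and 3 lay between 23.0 and 27.6.

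OVA pulsing itself was compared in each line, since all cells had LPS. None of the 5 receptor genes passed by edgeR in CtrV cells, in EKO-labelled cells or in the test of whether the line difference depended on pulsing, and 0% of the 14079 genes were called in each. At an unadjusted p under 0.05 the counts over all genes were 231, 394 and 269 by edgeR, 44, 156 and 103 by DESeq2 and 246, 423 and 297 by limma voom, and none of the receptor genes had an unadjusted edgeR p under 0.05. The widest interval was that of Flt3, with log2 fold changes of -0.45 (95% interval -1.52 to 0.63) in CtrV and 0.38 (95% interval -0.43 to 1.18) in EKO-labelled cells. For Csf1r the values were 0.02 (95% interval -0.12 to 0.15) and 0.06 (95% interval -0.08 to 0.19). For Csf2rb they were 0.01 (95% interval -0.17 to 0.19) and 0.10 (95% interval -0.08 to 0.28), for Csf2rb2 0.04 (95% interval -0.14 to 0.21) and 0.13 (95% interval -0.05 to 0.30), and for Csf2ra 0.01 (95% interval -0.16 to 0.18) and 0.08 (95% interval -0.09 to 0.25). These comparisons share their control libraries with those of the lines.

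The receptor genes also varied together within a line. After the mean of each line was removed, log2 CPM of Csf2rb and Csf2rb2 had a Pearson r of 0.97 over the 12 libraries. Flt3 had an r of 0.92 with Csf2rb and of 0.83 with Csf2rb2, while Csf2ra had an r of -0.69 with Csf2rb and -0.66 with Csf2rb2. Csf1r was least tied to the others, with r between -0.35 and 0.37. These are descriptions in which the points share libraries, and EKO-labelled replicate 1 was the highest of its group for Flt3, Csf2rb and Csf2rb2 and the lowest for Csf2ra. Among 12377 genes searched, genes most similar to Flt3 included Traf4 (r 0.97), an adaptor of TNF receptors, and Washc2 (0.96). For Csf1r they were Bag5 (0.89), Ust (0.86) and Cebpd (0.85), for Csf2ra Gm7367 (0.97), Btbd19 (0.96) and the calcineurin gene Ppp3cb (0.96). For Csf2rb they were Gm20708 (0.98), the kinase gene Mknk2 (0.98) and Tbc1d8 (0.98), and for Csf2rb2 the formin gene Diaph1 (0.99), Stat3 (0.98) and St3gal2 (0.98).

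Of the promoters, the RefSeq table for GRCm38.p6 held a window of 250 bases before the start for 5 of the 7 genes, Flt3, Kit, Csf2ra, Csf2rb2 and Csf3r. The windows of Flt3 and Csf2ra are shown because both genes encode a ligand-binding chain, Flt3 at the lowest and Csf2ra at an intermediate level. The core letters GAGGAA of PU.1, a transcription factor of myeloid genes, were searched on both strands and are in capitals. Flt3, at chr5:147400490-147400739 on the minus strand, had no match, and Csf2ra, at chr19:61228419-61228668 on the minus strand, had 2 that adjoin, starting 14 and 8 bases before the start.
Flt3: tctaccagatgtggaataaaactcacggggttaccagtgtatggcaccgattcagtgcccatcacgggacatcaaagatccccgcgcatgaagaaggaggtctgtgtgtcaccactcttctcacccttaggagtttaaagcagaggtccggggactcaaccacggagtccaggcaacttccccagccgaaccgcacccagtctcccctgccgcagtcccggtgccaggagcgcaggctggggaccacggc
Csf2ra: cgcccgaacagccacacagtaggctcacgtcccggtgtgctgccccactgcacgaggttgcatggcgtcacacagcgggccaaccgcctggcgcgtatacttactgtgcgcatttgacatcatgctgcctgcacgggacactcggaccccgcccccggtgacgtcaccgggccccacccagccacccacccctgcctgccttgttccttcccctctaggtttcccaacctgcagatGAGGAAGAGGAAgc
Csf2rb2, Kit and Csf3r held 1 match each, and 23.3% of 32851 promoter windows held at least 1. The Runx core TGTGGT (14.0% of windows), the C/EBP form TTGCNNAA (9.56%) and the GATA motif AGATAA (9.99%) were in none of the 5. Spi1, the gene of PU.1, did not pass between the lines, with log2 fold changes of 0.07 (edgeR adjusted p 0.43) in OVA-pulsed and 0.06 (edgeR adjusted p 0.50) in unpulsed cells.

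Ligand genes were mostly silent in these cells. Of 8 ligand genes 2 were tested, and Csf2, Csf3, Il3, Il5, Il34 and Kitl had 0 to 2 counts in any library, so that the GM-CSF and stem cell factor genes were at or near 0. Csf1, which encodes M-CSF, stood at 0.665 to 1.27 CPM in CtrV and 1.36 to 2.64 CPM in EKO-labelled libraries. It rose in both states, with log2 fold changes of 0.85 (SE 0.29, edgeR adjusted p 0.032) in OVA-pulsed and 1.36 (SE 0.30, edgeR adjusted p 0.0042) in unpulsed cells, at 20 to 80 counts per library. Csf1 passed the expression filter only through EKO-labelled libraries, which limits this result. Flt3l, which encodes FLT3 ligand, rose in unpulsed cells, with a log2 fold change of 0.41 (SE 0.10, edgeR adjusted p 0.0058), and had 0.14 (SE 0.09, edgeR adjusted p 0.24) in OVA-pulsed cells. The ligand median log2 fold changes were 0.50 in OVA-pulsed and 0.88 in unpulsed cells. The numbers that passed were 1 of 2 and 2 of 2, Csf1 included in both, where 47.0% and 46.4% of all genes passed. They were the same without the EKO-labelled libraries of replicate 1, where 42.7% and 44.3% of all genes passed. The alpha chains that share the common beta chain were also low. Il5ra, the IL-5 receptor alpha chain, had 86 to 152 counts in CtrV and 1 to 8 counts in EKO-labelled libraries, with log2 fold changes of -5.22 (SE 0.29, edgeR adjusted p 2.4e-07) and -4.14 (SE 0.28, edgeR adjusted p 1e-06). Il5ra passed the expression filter only through CtrV libraries. Il3ra was not tested, with 5 to 22 counts per library.

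The lists of genes around the receptors are read against the shares over all genes, 25.1% higher and 21.9% lower in OVA-pulsed cells and 24.5% higher and 21.9% lower in unpulsed cells. Among signal transducers below the receptors, of 28 tested, 16 were higher and 5 lower in OVA-pulsed cells and 12 higher and 4 lower in unpulsed cells, with medians of 0.33 and 0.21 beside 0.00 for all genes. The counts were 16 and 4 in OVA-pulsed and 12 and 4 in unpulsed cells without the EKO-labelled libraries of replicate 1. The SRC-family kinase gene Fgr stood at 232 to 249 CPM in CtrV and 84.2 to 99.2 CPM in EKO-labelled libraries, a log2 fold change of -1.46 in OVA-pulsed cells (SE 0.06, edgeR adjusted p 2.7e-08). Stat5a, which JAK2 activates, was like Flt3 highest in EKO-labelled replicate 1. It was at 140, 67.2 and 57.6 CPM in unpulsed EKO-labelled libraries, at 176, 60.8 and 127 CPM in OVA-pulsed ones and at 34.3 to 83.2 CPM in CtrV, and it rose in OVA-pulsed cells (log2 fold change 1.23, SE 0.32, edgeR adjusted p 0.0091) but did not pass in unpulsed cells (log2 fold change 0.64, SE 0.32, edgeR adjusted p 0.13). Stat5b rose in both, by 0.75 (edgeR adjusted p 0.0011) and 0.56 (edgeR adjusted p 0.0069) on the log2 scale, and Jak2 itself had -0.15 (edgeR adjusted p 0.13) and -0.12 (edgeR adjusted p 0.22).

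Among inhibitors and turnover genes 18 were tested, with 7 higher and 4 lower in OVA-pulsed cells and 9 higher and 4 lower in unpulsed cells, where 47.0% and 46.4% of all genes passed in either direction. The medians were 0.07 and 0.14, and without the EKO-labelled libraries of replicate 1 the counts were 7 and 5 in OVA-pulsed and 8 and 4 in unpulsed cells. Socs3, a feedback inhibitor of JAK signalling, stood at 20.6 to 29.6 CPM in CtrV and 60.9 to 96.5 CPM in EKO-labelled libraries and rose by a log2 fold change of 1.60 in OVA-pulsed cells (SE 0.18, edgeR adjusted p 3.6e-05). Sla2, an adaptor of the family that lowers surface receptors, was lower, with a log2 fold change of -1.64 (SE 0.40, edgeR adjusted p 0.0064), as was Dok2, an adaptor that restrains kinase signals, with -1.56 (SE 0.22, edgeR adjusted p 0.00017). Of 4 tested genes for the proteases that shed receptors and their partners, 2 were higher and 2 lower in OVA-pulsed cells and 1 was higher and 1 lower in unpulsed cells, with medians of -0.07 and -0.02, beside the same 47.0% and 46.4% of all genes. Adam17, the protease that cleaves CSF1R, rose slightly, by a log2 fold change of 0.12 (edgeR adjusted p 0.045) and 0.16 (edgeR adjusted p 0.014). Rhbdf1 fell, with a log2 fold change of -3.32 (SE 0.30, edgeR adjusted p 8.1e-06) in OVA-pulsed cells, at 3 to 10 counts in EKO-labelled against 45 to 86 in CtrV libraries. It passed the expression filter only through CtrV libraries. Adam10 and Rhbdf2 had small log2 fold changes of -0.26 (edgeR adjusted p 0.0058) and 0.18 (edgeR adjusted p 0.014). Without the replicate block the counts of this list in OVA-pulsed cells were 0 higher and 2 lower, against 20.5% and 18.0% of all genes. They were 2 and 2 in OVA-pulsed and 2 and 1 in unpulsed cells without the EKO-labelled libraries of replicate 1.

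**Figure D5:**
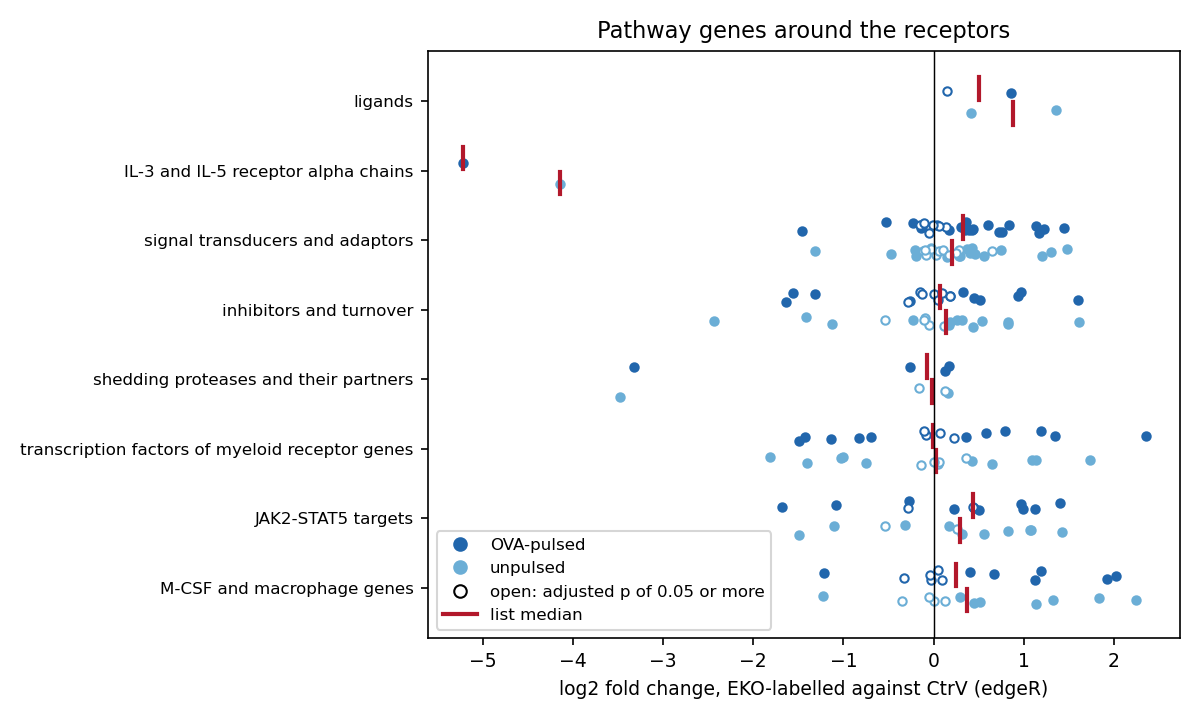
Log2 fold change (x axis, edgeR, EKO-labelled against CtrV) of each tested gene of 8 lists around the receptors, in OVA-pulsed (dark blue) and unpulsed cells (light blue); filled points have an adjusted p under 0.05 and red bars are list medians. Myb, at 0 or 1 counts in EKO-labelled libraries, is left out of the points but not of its list's median; the transducer list has 16 higher and 5 lower genes in OVA-pulsed cells.

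Of the transcription factors known to act on myeloid receptor genes 16 were tested, with 6 higher and 6 lower in OVA-pulsed and 5 higher and 6 lower in unpulsed cells, against 47.0% and 46.4% of all genes in either direction. Without the EKO-labelled libraries of replicate 1, of 15 tested 4 were higher and 7 lower in OVA-pulsed and 5 higher and 6 lower in unpulsed cells. The medians were -0.01 and 0.03, also with Myb set at its bound of 3 counts per EKO-labelled library. Myb, a factor of progenitors, had 89 to 129 counts in CtrV libraries and 0, 0 and 1 counts in each EKO-labelled group. Maf, a macrophage factor, stood at 0.176 to 0.430 CPM in CtrV and 0.429 to 2.38 CPM in EKO-labelled libraries, highest in replicate 1 of both EKO-labelled groups, with a log2 fold change of 2.35 in OVA-pulsed cells (SE 0.43, edgeR adjusted p 0.0012). Klf4 was lower, with a log2 fold change of -1.49 (SE 0.26, edgeR adjusted p 0.00092). Maf passed the expression filter only through EKO-labelled libraries, and Myb and Klf4 passed it only through CtrV libraries, which limits these 3 results. Irf8, needed for type 1 DCs, rose with a log2 fold change of 1.35 (edgeR adjusted p 4e-05) and Cebpa fell with -1.13 (edgeR adjusted p 8.2e-06).

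Targets of the JAK2 and STAT5 route were 7 higher and 3 lower of 12 tested in both states, with medians of 0.44 and 0.29, against 25.1% of all genes higher and 21.9% lower in OVA-pulsed and 24.5% and 21.9% in unpulsed cells. In unpulsed cells they were 5 higher and 4 lower with upper-quartile normalization, 5 and 3 without the replicate block, and 6 and 4 without the EKO-labelled libraries of replicate 1. Cish, a direct STAT5 target and inhibitor, stood in OVA-pulsed cells above CtrV by a log2 fold change of 0.97 (edgeR adjusted p 2.5e-05), Bcl2l1, a survival gene, by 1.40 (SE 0.10, edgeR adjusted p 1.8e-06) and Ccnd2, a cyclin, by 1.12 (SE 0.15, edgeR adjusted p 0.00017). Ccnd2 stood at 2344 CPM in replicate 1 of OVA-pulsed EKO-labelled cells and at 1209 and 1490 CPM in the others, against 633 to 995 CPM in CtrV. Cd24a, a DC subset marker on the list, was lower, with a log2 fold change of -1.68 (SE 0.09, edgeR adjusted p 1.7e-07). Genes that follow M-CSF or mark macrophages were 6 higher and 1 lower of 12 in OVA-pulsed and 7 higher and 1 lower in unpulsed cells. Their medians were 0.25 and 0.37. The shares of all genes beside them were 25.1% higher and 21.9% lower in OVA-pulsed and 24.5% and 21.9% in unpulsed cells. Lyz2, the lysozyme gene, stood at 6.12 to 7.22 CPM in CtrV and 25.4 to 32.6 CPM in EKO-labelled libraries and rose by a log2 fold change of 2.02 in OVA-pulsed cells (SE 0.09, edgeR adjusted p 5.8e-08). Cd14, the LPS co-receptor gene, rose with a log2 fold change of 1.92 (SE 0.20, edgeR adjusted p 2.1e-05) and the protease gene Plau was lower with -1.22 (SE 0.10, edgeR adjusted p 3.3e-06). Without the EKO-labelled libraries of replicate 1, the STAT5 targets were 7 higher and 4 lower in OVA-pulsed cells, and the M-CSF list was 6 higher and 1 lower in OVA-pulsed and 8 higher and 2 lower in unpulsed cells.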

How the data were processed

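RNA sequencing of Sp37A3 cells was the only experiment used. The authors deposited raw counts per gene in 1 table. Per the study's methods, reads were aligned to mm10 with STAR, with 1 location reported for reads that fit several, and counted on the union of exons with featureCounts and an Ensembl model. Symbols, positions and lengths came from the GENCODE annotation of GRCm38, promoters from RefSeq.

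Genes whose log2 CPM exceeded 0 in 2 libraries or more were fitted in edgeR 4.0.16 (R 4.3.3, legacy quasi-likelihood, TMM, group and replicate number, all 12 libraries) with Benjamini-Hochberg adjustment over 14079 genes and a threshold of 0.05. The replicate number, a covariate in the study's methods, correlated deviations of same-numbered libraries by 0.45, 0.29 and 0.29 between OVA-pulsed lines and by 0.06, -0.01 and 0.26 between unpulsed lines. RPKM used union exon lengths. Likeness was searched among tested genes by Pearson r on log2 CPM centred per line. Named genes were the 7 receptors and, from each list, those with the largest changes, besides some chosen after their values were seen (Flt3l, Stat5b, Jak2, Cish, Spi1, Irf8, Cebpa and Adam17). The members and lists were chosen with earlier results of these data known. DESeq2 1.42.0, limma 3.58.1 voom and the other alternatives are given below. The fit was tested on simulated counts. Some genes that the rule names are not reported here.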

Additional observations from a re-analysis of the deposited data

How the results depend on the processing

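Alternatives were RLE and upper-quartile normalization, DESeq2, limma voom, bias-adjusted deviances, no filter, at least 10 counts in every library, no replicate block, the 6 compared libraries alone, summed beta chains, and fits without single libraries or both EKO-labelled libraries of replicate 1. No receptor result called in the full fit reversed or lost its call, in 12 fits without 1 library and 10 other alternatives each. Most of the 570 refits of single genes were of results not called in the full fit, which had no call to lose. Among these, Csf2rb2 and Flt3 gained a call in some, while the summed beta chains, which are not Csf2rb2 itself, passed in both states. Leaving out 1 library, 3 receptor genes were called in OVA-pulsed and 2 to 3 in unpulsed cells, and 0 in the comparisons of pulsing. Over all genes, 5171 to 6993 of 14036 to 14066 were then called in OVA-pulsed and 5364 to 6476 in unpulsed cells. Without an expression filter 4 of 6 receptor genes were called in unpulsed cells (Flt3, Csf1r, Csf2rb and Csf2rb2), beside 6499 of 28881 genes in all. With the length of the longest transcript, 14 of 16 positions in the order of levels were kept, because Csf2rb and Csf2rb2 changed places in both EKO-labelled groups. That length is 4900 bases for Csf2rb, against 7277 for its union of exons, while both lengths are 4740 for Csf2rb2. The relation between the levels of the beta chains therefore depends on the length chosen. For Csf2rb2 in unpulsed cells upper-quartile normalization gave -0.24 (adjusted p 0.027) and DESeq2 -0.19 (adjusted p 0.046). The fit without the replicate block called the same number of receptor genes, 3 and 2, with Flt3 at 1.79 (edgeR adjusted p 0.028) and Csf2rb at -0.37 in OVA-pulsed cells, and 5413 in place of 6619 genes in all. Upper-quartile normalization turned the balance of all called genes, to 3103 higher and 3696 lower in OVA-pulsed and 2910 higher and 3864 lower in unpulsed cells, from 3531 and 3088 and from 3448 and 3089. Flt3 had 33 to 281 counts per library, which limits its precision, and its log2 fold change in OVA-pulsed cells lay between 1.33 and 2.00 when 1 library was left out.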
